A study of Rattus norvegicus with 20 samples.

Results

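The genes described here are 10 rat genes that were selected on a large difference in femur signal between rats on the P and rats on the NP genetic background: Setd1b, Sgcb, Tmco3, Rexo4, Atp10d, Snx14, Gfap, Dck, Nrtn and Pdgfrl. A probe set is a group of short probes on the array that is read as 1 value. Every probe set annotated with exactly 1 of these symbols was taken, which gave 10 genes of 14217 and 15 probe sets of 31042 on the array (controls left out), 3 each for Sgcb and Dck, 2 for Tmco3 and 1 for each of the other 7 genes. The comparison of the 2 backgrounds chose these genes, so it is given as a description with no test. Femurs of 20 rats aged 4 weeks, 5 of each strain, had each been hybridised to its own Affymetrix array. P.NP rats were P rats into which the NP version of the 4q22-q34 segment of chromosome 4 had been bred, P rats were the inbred alcohol-preferring strain, NP.P rats were NP rats with the P version of that segment, and NP rats were the inbred alcohol-nonpreferring strain. Each congenic strain came from 10 generations of backcrossing, and all 4 strains trace back to 1 closed Wistar colony. P.NP and P rats together make up the P background (10 rats), and NP.P and NP rats the NP background (10 rats).

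The 10 genes do not belong to 1 pathway. Setd1b encodes the catalytic subunit of a complex that methylates histone H3 on lysine 4 at active promoters, Rexo4 a predicted exonuclease, and Dck the kinase that starts the salvage of deoxycytidine and other deoxynucleosides into DNA precursors. Sgcb is beta-sarcoglycan of the complex that anchors the muscle fibre membrane, Atp10d a lipid flippase of the P4-ATPase family, Snx14 a sorting nexin of lipid and endosome traffic, and Tmco3 a multipass protein that resembles sodium-proton exchangers. Nrtn is neurturin, a ligand of the GDNF family that signals through the co-receptor Gfra2 and the kinase Ret. Pdgfrl is a secreted protein that resembles the outer part of the PDGF receptors but has no kinase, and Gfap is the intermediate filament of astrocytes and of non-myelinating Schwann cells of peripheral nerve. In inbred strains, a gene whose reading differs between strains can differ in transcript level or in the sequence under the probes, and an array value alone does not separate these. Probe sequences were not used here, so the part of sequence variants in these differences was not tested.

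None of the 10 genes lies on chromosome 4, where the congenic segment is. They lie on 7 chromosomes of the GRCr8 assembly, with Dck, Sgcb and Atp10d on chromosome 14 and Tmco3 and Pdgfrl on chromosome 16. The RefSeq promoter windows of GRCr8, which run from 250 bases before to 50 bases after a gene's start, held 9 of the 10 genes (not Pdgfrl). The windows of Setd1b and Dck are shown because these genes had the largest differences in favour of the NP background after Sgcb, and that of Atp10d because it lies on the chromosome of Dck and differed the other way. Capitals mark matches to the GC box GGGCGG and the CCAAT box CCAAT on either strand, with touching or overlapping matches run together:
Setd1b, chr12:39081822-39082121, minus strand: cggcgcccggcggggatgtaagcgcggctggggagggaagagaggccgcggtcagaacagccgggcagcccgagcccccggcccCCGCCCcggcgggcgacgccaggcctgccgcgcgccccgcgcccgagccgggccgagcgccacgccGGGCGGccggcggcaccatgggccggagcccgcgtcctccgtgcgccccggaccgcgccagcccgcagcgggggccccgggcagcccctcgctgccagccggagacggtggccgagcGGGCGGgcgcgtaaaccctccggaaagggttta
Dck, chr14:19610277-19610576, minus strand: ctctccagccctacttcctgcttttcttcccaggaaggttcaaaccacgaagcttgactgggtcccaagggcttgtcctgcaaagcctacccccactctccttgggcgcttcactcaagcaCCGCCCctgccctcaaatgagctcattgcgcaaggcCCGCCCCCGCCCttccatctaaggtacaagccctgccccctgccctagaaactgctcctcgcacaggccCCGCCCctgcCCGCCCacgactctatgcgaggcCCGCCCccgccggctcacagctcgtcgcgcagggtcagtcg
Atp10d, chr14:36366411-36366710, minus strand: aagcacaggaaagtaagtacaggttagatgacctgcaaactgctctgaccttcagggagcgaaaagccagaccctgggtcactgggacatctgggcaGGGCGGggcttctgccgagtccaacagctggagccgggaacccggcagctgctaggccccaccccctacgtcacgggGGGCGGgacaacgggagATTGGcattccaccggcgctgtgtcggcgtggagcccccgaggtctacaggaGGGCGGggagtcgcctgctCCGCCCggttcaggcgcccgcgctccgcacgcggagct
The GC box was found 3 times for Setd1b, 6 times for Dck and 4 times for Atp10d, and 33.1% of 33469 RefSeq promoter windows held at least 1. It also occurred 1 time each for Rexo4 and Snx14 and 1 time in each of the 2 windows of Tmco3, and it was not in the windows of Sgcb, Gfap and Nrtn. A CCAAT box was in the Atp10d window and in 1 window of Tmco3 (37.5% of all windows), and the TATA box TATAAA was in none of the 9 genes' windows (14.2% of all windows). These are reference sequences and not those of the P or NP strains, and a match is a description of letters.

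What the authors deposited are signals on a linear scale from the MAS5 algorithm, brought to 1 common trimmed mean on all arrays. Array medians lay between 292 and 322. Differences are given on the log2 scale as P background minus NP background, so that 1 unit is a 2-fold difference. Of the 31042 probe sets, 18625 had a mean log2 signal that reached the 40th percentile of all probe sets (169.7 as a signal) and were tested, and all 15 of the 10 genes were among them. For 2 of these, 1 of Tmco3 and 1 of Dck, the background with the lower signal had a mean under that limit, so they passed only through the other background. The RNA was that of femur. The 9 bone matrix and osteoblast markers tested summed to signals of 344486 to 400584 in the 10 P background rats. In the 10 NP background rats they summed to 307336 to 406012. For the 11 skeletal muscle markers tested these sums were 388005 to 537301 and 359521 to 596685, so muscle signal was also high. Of the 9 bone markers, Alpl and Phex were higher on the P background. The 9 erythroid markers were all lower on the P background, with a median of -0.24, and 2 of them were higher in NP.P than in NP rats, Hemgn (0.28, adjusted p = 0.0321, limma) and Fech (0.25, adjusted p = 0.073), with 6 of the 9 at an unadjusted p under 0.05 in that comparison. Myh1 was higher among 11 skeletal muscle markers, and 0 of 7 cartilage markers passed (0 at an unadjusted p under 0.05). In the same rats the score of the erythroid list, the average of centred log2 values, ran from -0.27 to 0.06 on the P background and from -0.11 to 0.25 on the NP background. The score of the cartilage list varied more between rats, from -1.83 to 0.41 on the P background and from -0.59 to 0.46 on the NP background. The part of these cell types in the differences described here was not tested. In whole femur RNA, fewer cells of a type and less RNA per cell cannot be told apart.

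Read at the probe set with the largest difference, called the leading one here, 6 genes had higher signals on the P background (Tmco3, Rexo4, Atp10d, Snx14, Gfap and Pdgfrl) and 4 on the NP background (Setd1b, Sgcb, Dck and Nrtn). The differences ran from 2.20-fold for Pdgfrl to 10.3-fold for Sgcb. All 10 leading probe sets, and 12 of all 15, differed by 2-fold or more, where 0.73% of the 18625 tested probe sets did. The 10 P background and the 10 NP background rats did not overlap at 13 of the 15 probe sets, against 1.83% of all tested probe sets. These values are what the genes were picked for, and nothing is read from the comparison of the shares. By size, Sgcb was 7th, Setd1b 17th and Dck 34th among the tested probe sets.

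**Figure D1:**
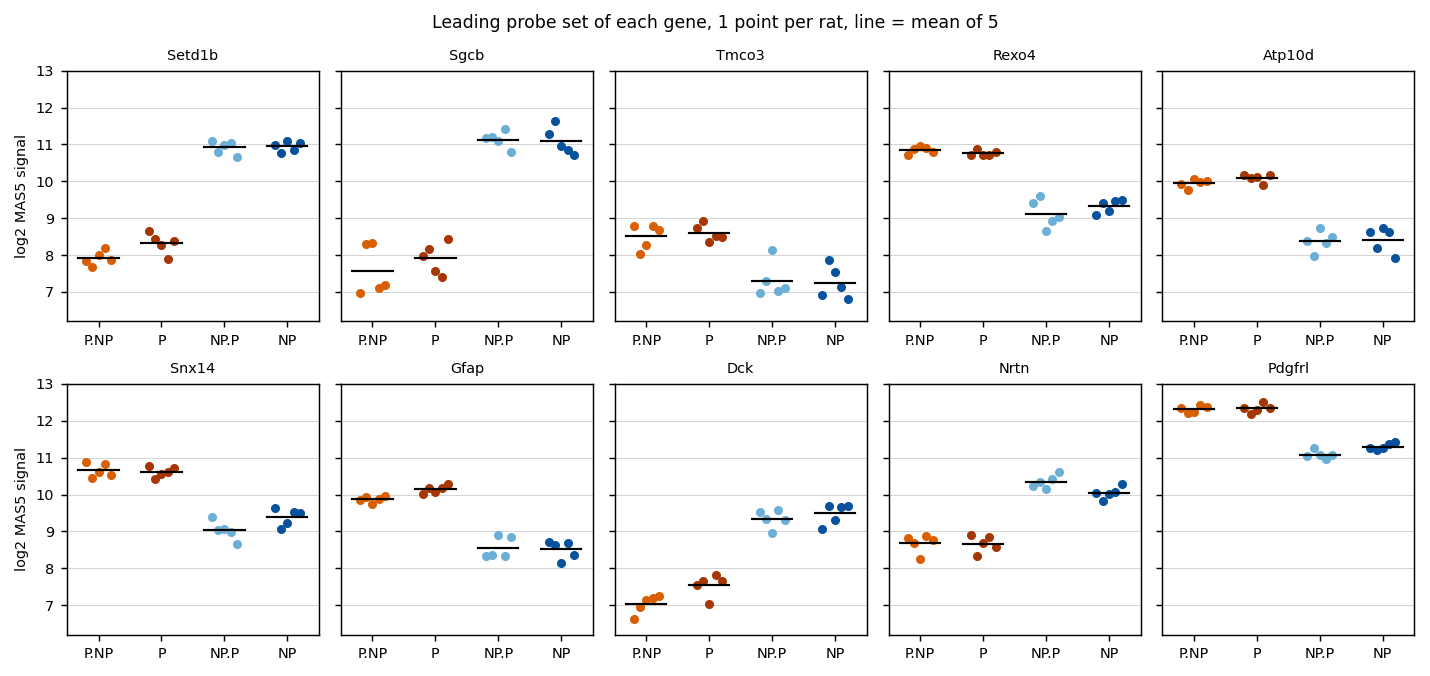
MAS5 signal (log2) of the leading probe set of each of the 10 genes in P.NP, P, NP.P and NP rats; each point is 1 rat and each line the mean of 5. In every panel the 2 strains of a background lie together, and only the leading Tmco3 probe set has rats of the 2 backgrounds that overlap.

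Whether the label of near on-off genes fits can be read from the lower background. The lowest signal of any rat at any of the 15 probe sets was 98.1, for Dck in P.NP replicate 1, and no value was near the floor of 1. On the lower background, the leading probe sets stood on average between the 36th percentile of an array (36.4 for Tmco3 and 36.4 for Dck) and the 86th (86.4 for Pdgfrl). Rexo4, Atp10d, Snx14, Gfap, Nrtn and Pdgfrl, 6 of the 10, were on average above the middle of the array on both backgrounds. On the NP background Atp10d and Gfap were only just above it, at mean percentiles of 52.0 and 53.9, with single rats below it. For Setd1b the mean percentile was 48.0 on the P background and 83.8 on the NP background, and for Sgcb 42.7 and 85.5. A MAS5 signal above the floor does not by itself show that a transcript was present, and detection calls were not used here. Other probe sets of Tmco3, Dck and Sgcb stood higher in the array. Tmco3 at 1390432_at had a mean percentile of 73.9 on the NP background. On the P background Dck had 76.5 at 1384041_at and 53.3 at 1387626_at. There Sgcb had 58.8 at 1383766_at and 60.9 at 1384044_at. Whether any of the 10 genes was expressed on its lower background was not tested, and the genes are called here the 10 background-difference genes.

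**Figure D2:**
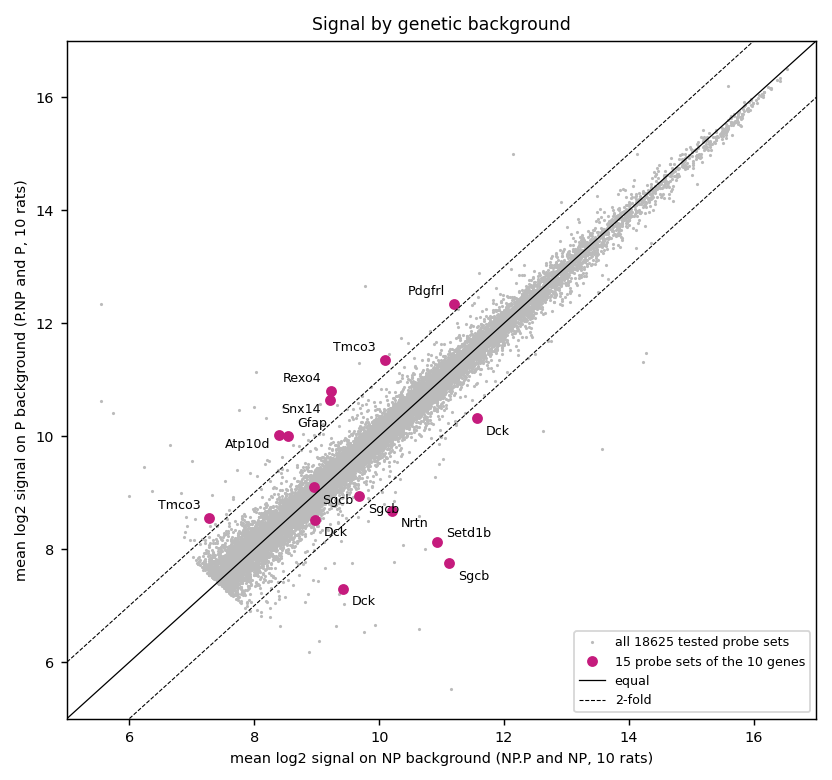
Mean log2 MAS5 signal of each tested probe set on the P background (vertical, 10 rats) against the NP background (horizontal, 10 rats), with the 15 probe sets of the 10 genes in colour. Dashed lines mark 2-fold differences; 12 of the 15 lie outside them, and 3 probe sets, 2 of Sgcb and 1 of Dck, lie inside.

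Setd1b, read at 1 probe set, was low in every rat on the P background. Its signals were 229, 205, 257, 294 and 232 in P.NP and 405, 348, 307, 238 and 337 in P rats, against 2186, 1774, 2044, 2109 and 1626 in NP.P and 2035, 1756, 2179.6, 1836 and 2089.8 in NP rats. The highest rat of the P background, at 405, was 4.02-fold under the lowest rat of the NP background. The mean was 285 ± 64.0 on the P background and 1963 ± 198.5 on the NP background (SD, n = 10 each), a difference of -2.81 on the log2 scale (standard error 0.09).

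Rexo4, the predicted exonuclease, differed in the opposite direction. Its signals were 1674, 1887, 2000.3, 1898 and 1774 in P.NP and 1674, 1896, 1673, 1680.2 and 1782 in P rats, against 684, 778, 404, 481 and 522 in NP.P and 541, 684, 586, 704 and 721 in NP rats. The 10 P background rats lay within a narrow band and the NP.P rats were the most spread of the 4 strains, with an SD of 153 in NP.P against 79.2 in NP rats and 98.2 to 125 in P and P.NP rats. The mean difference was 1.58 (standard error 0.10), or 2.99-fold.

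Dck, the deoxycytidine kinase gene, was lower on the P background at all 3 of its probe sets, by unequal amounts. At the leading probe set, 1384845_at, the signals were 98.1, 124, 142, 148 and 152 in P.NP and 188, 202, 132, 227 and 201 in P rats, against 736, 647, 495, 765 and 632 in NP.P and 539, 832, 639, 808 and 824 in NP rats. Its P background mean, 161, was under the limit for testing. At 1384041_at, the brightest of the 3, the signals were 1263, 1093, 1156, 1101 and 1274 in P.NP and 1546, 1395, 1342, 1137 and 1534 in P rats, against 2935, 3346, 2994, 3115 and 3134 in NP.P and 2996, 3049, 3281, 2783 and 2704 in NP rats. At 1387626_at they ran from 261 to 426 (median 374) on the P background and from 442 to 633 (median 511) on the NP background. All 3 probe sets separated the backgrounds without overlap, the last by only 1.04-fold between its nearest rats. The differences were -2.12 (standard error 0.12), -1.25 (0.06) and -0.45 (0.09), so the gene read 4.36-fold, 2.38-fold or 1.36-fold lower on the P background depending on the probe set.

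Sgcb had the largest difference of the 10 genes and the least alike probe sets. At the leading probe set, 1374796_at, the signals were 126, 314, 320.4, 138 and 145 in P.NP and 253, 288, 189, 171 and 344 in P rats, against 2303, 2337, 2177, 2721 and 1786 in NP.P and 2496, 3206, 1985, 1836 and 1685 in NP rats. The nearest rats of the 2 backgrounds were 4.90-fold apart. At 1383766_at the signals were 399, 535, 439, 519 and 469 in P.NP and 406, 591, 503, 461 and 607 in P rats, against 723, 862, 952, 919 and 768 in NP.P and 901, 949.5, 774, 675 and 713 in NP rats. There too the backgrounds did not overlap, but the nearest rats were only 1.11-fold apart. At 1384044_at the signals were 495, 722, 546, 487 and 448 in P.NP and 544, 715, 459, 530.2 and 585 in P rats, against 547, 436, 540.0, 543 and 421 in NP.P and 652, 646, 439, 367 and 432 in NP rats. Here the ranges of the backgrounds overlapped widely. The background differences were -3.37 (standard error 0.19), -0.74 (0.09) and 0.14 (0.12), which is 10.3-fold and 1.67-fold lower on the P background and 1.11-fold higher on it.

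Between rats of 1 background the 3 Sgcb probe sets were positively correlated, more closely on the NP background than on the P background. Within the 10 NP background rats, log2 signals at 1374796_at and 1384044_at had a Pearson r of 0.82 (Spearman rho 0.81), and within the 10 P background rats 0.74 (rho 0.76), given as a description over arrays that share the scaling of each array. Between 1374796_at and 1383766_at r was 0.77 (rho 0.71) on the NP background and 0.45 (rho 0.48) on the P background. For 1383766_at and 1384044_at r was 0.73 (rho 0.64) on the NP background and 0.51 (rho 0.41) on the P background. The ratio of 1374796_at to 1384044_at within a rat was -1.35 ± 0.41 log2 on the P background, from -1.97 to -0.77, and 2.16 ± 0.17 log2 on the NP background, from 1.94 to 2.42 (SD, n = 10 each). For Dck no pair of probe sets had a Pearson r above 0.37 within a background, and for the pair of Tmco3 r was 0.19 (rho 0.07) on the P background and -0.51 (rho -0.66) on the NP background.

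Tmco3 gave nearly the same difference at both of its probe sets. At 1391134_at, which was the dimmer of the pair, the signals were 443, 260.3, 309, 441 and 409.8 in P.NP and 428, 487, 326, 365 and 359 in P rats, against 125, 156, 283, 131 and 138 in NP.P and 119.8, 234, 187, 140.3 and 112 in NP rats. NP.P replicate 3, at 283, was above P.NP replicate 2, at 260.3, and this was the only overlap. At 1390432_at the signals ran from 2379 to 3007 (median 2598) on the P background and from 919 to 1436 (median 1071) on the NP background, and the backgrounds did not overlap. The differences were 1.28 (standard error 0.16) and 1.26 (0.07), and the ratio of 1390432_at to 1391134_at averaged 2.79 ± 0.28 log2 on the P background and 2.81 ± 0.57 on the NP background (SD, n = 10 each).

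**Figure D3:**
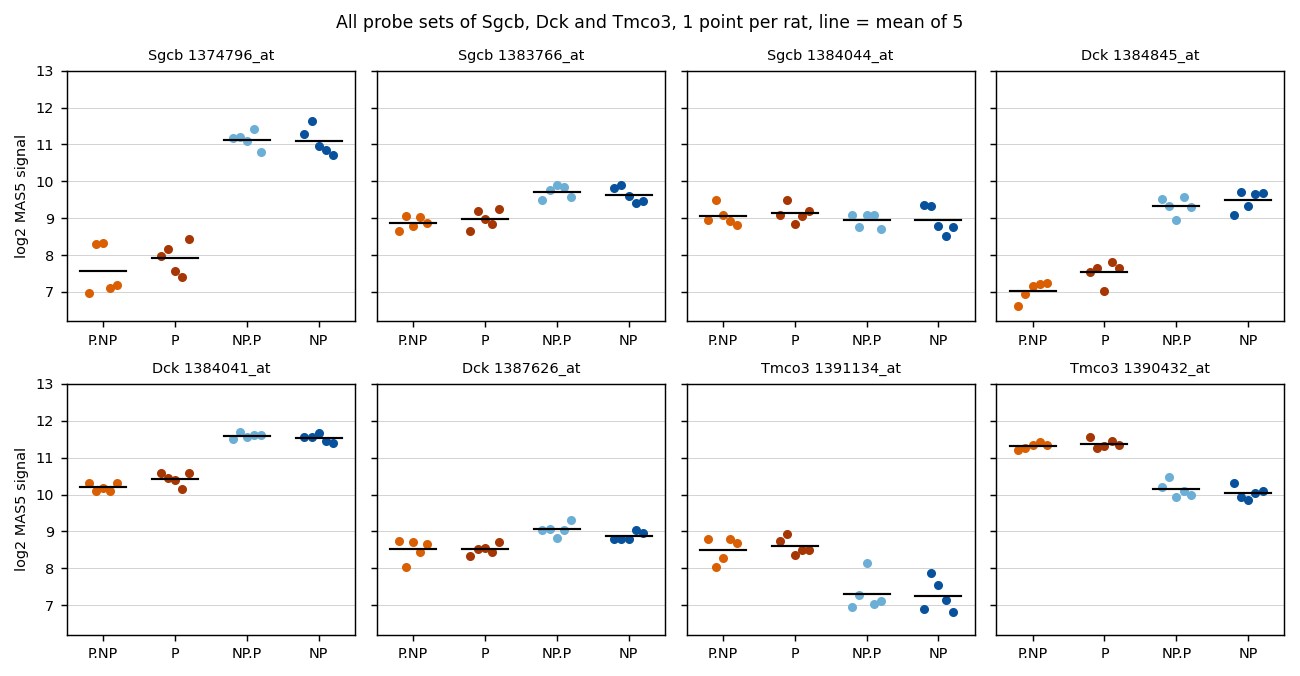
MAS5 signal (log2) at all probe sets of Sgcb (3), Dck (3) and Tmco3 (2) in P.NP, P, NP.P and NP rats; each point is 1 rat and each line the mean of 5. Sgcb separates the backgrounds by -3.37, -0.74 and 0.14 log2 at its 3 probe sets, Dck by -2.12, -1.25 and -0.45, and Tmco3 by 1.28 and 1.26.

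Of 2649 genes with 2 or more tested probe sets, 31 had a leading difference of 2-fold or more, and 3 of these are Sgcb, Dck and Tmco3. In 0 of the other 28 did all probe sets differ by 2-fold in 1 direction, as both did for Tmco3, and in 1 of the 28 at least 1 further probe set did. In 15 of the 28 all probe sets at least had the same sign, as for Dck, and in the other 13 the signs were mixed, as for Sgcb. The background difference chose the members, and genes differ in their number of probe sets. Nothing is therefore read from setting the 3 genes beside the 28.

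The other membrane proteins were read at 1 probe set each. Atp10d ran from 864 to 1156 (median 1041) on the P background and from 243 to 425 (median 346) on the NP background, a difference of 1.62 (standard error 0.10) or 3.07-fold. Snx14 ran from 1370.2 to 1883 (median 1553) on the P background and from 404 to 796 (median 573) on the NP background, a difference of 1.42 (standard error 0.09) or 2.67-fold. Both were higher in each of the 10 P background rats than in any NP background rat.

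The secreted proteins differed in opposite directions. For Nrtn the signals were 449.9, 413, 307, 475 and 437 in P.NP and 483, 321, 409, 464 and 383 in P rats, against 1192, 1307, 1130.3, 1375 and 1573 in NP.P and 1056, 915, 1036, 1084 and 1244 in NP rats. Nrtn was thus lower in all 10 rats of the P background, by -1.52 (standard error 0.09) or 2.87-fold. Pdgfrl, the brightest of the 10 genes, ran from 4614 to 5864 (median 5206) on the P background and from 1992 to 2773 (median 2399) on the NP background, a difference of 1.14 (standard error 0.05).

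Gfap had signals of 925, 970.4, 850.3, 937 and 1003 in P.NP and 1039, 1162, 1072, 1164 and 1256 in P rats, against 325, 328, 481, 323 and 464 in NP.P and 417, 397, 285, 413 and 332 in NP rats. The background means were 1038 ± 126 and 377 ± 66.8 (SD, n = 10 each), a difference of 1.47 (standard error 0.09) with the higher mean on the P background. Of 8 other markers of glia and Schwann cells that were tested, Mbp of myelin was lower on the P background (-0.31, adjusted p = 0.0594, limma), and the other 7 did not pass. The astrocyte glutamate transporter gene Slc1a3 averaged 922 ± 84.5 on the P background and 945 ± 77.4 on the NP background, and the myelin gene Pmp22 5526 ± 690.1 and 5685 ± 685 (SD, n = 10 each). The score of the list ran from -0.24 to 0.13 on the P background and from -0.21 to 0.20 on the NP background. The list held 13 markers, of which 11 were on the array and 8 passed the filter for testing. The tested markers were thus picked for their signal, and whether glia were present was not tested.

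The comparisons of each congenic strain with its recipient strain were not used to choose the genes, and they ask whether the chromosome 4 segment changes the reading of these genes on other chromosomes. No member probe set passed at a false discovery rate of 10%. In limma's F test of both comparisons 0 of 15 passed (smallest adjusted p = 0.245), where 1.42% of all tested probe sets did, and 5 of the 15 had an unadjusted p under 0.05. Between P.NP and P rats 0 of 15 passed (smallest adjusted p = 0.336; 4 at an unadjusted p under 0.05; 0.231% of all tested probe sets passed), and between NP.P and NP rats 0 of 15 (smallest adjusted p = 0.186; 3 at an unadjusted p under 0.05; 2.3% passed). The difference in segment effect between the backgrounds passed for 0 of 15 (smallest adjusted p = 0.331; 3 at an unadjusted p under 0.05; 0.317% passed). The share of all tested probe sets at an unadjusted p under 0.05 was not counted, so nothing is read from such counts here or elsewhere. Between P.NP and P rats that count holds Dck at both 1384041_at and 1384845_at. The median absolute difference of the 15 was 0.09 log2 between P.NP and P rats and 0.08 between NP.P and NP rats, beside 0.09 and 0.11 over all tested probe sets.

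A p that misses the threshold does not show equal levels, and the intervals give what the arrays allow. Between P.NP and P rats the largest estimates were those of Dck at its leading probe set, -0.51 (95% interval -0.86 to -0.17, adjusted p = 0.388, limma), and of Setd1b, -0.41 (-0.68 to -0.15, adjusted p = 0.336). The Dck estimate compares dim readings, with a P background mean of 161 under the limit of 169.7 for testing. For Setd1b the means were 243.5 ± 33.7 in P.NP and 327 ± 61.2 in P rats (SD, n = 5 each), and without P replicate 4, the lowest P rat, its adjusted p in the F test was 0.0938. Gfap had an estimate of -0.28 (-0.54 to -0.02, adjusted p = 0.617), and all 5 P.NP rats were under all 5 P rats. Dck at 1384041_at had -0.23 (-0.41 to -0.06, adjusted p = 0.459), while its probe set 1387626_at had 0.00 (-0.25 to 0.25).

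Between NP.P and NP rats the largest estimate was that of Snx14, -0.37 (95% interval -0.64 to -0.10, adjusted p = 0.195, limma), with 669, 527, 539, 511 and 404 in NP.P against 796, 541, 605, 733 and 730.5 in NP rats. Its adjusted p was 0.0861 without NP.P replicate 1 and 0.0968 with the replicate number as a block. Nrtn had an estimate of 0.30 (0.03 to 0.57, adjusted p = 0.319) and Pdgfrl of -0.22 (-0.38 to -0.06, adjusted p = 0.186). Pdgfrl had 2095, 2476, 2167, 1992 and 2162 in NP.P against 2455, 2361, 2438, 2633 and 2773 in NP rats, so that only NP.P replicate 2 reached into the NP range. In the same comparison 2 of the 9 erythroid markers passed, as given above, and their part in these estimates was not tested. The leading probe set of Sgcb had the widest interval, -0.52 to 0.60, around an estimate of 0.04.

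**Figure D4:**
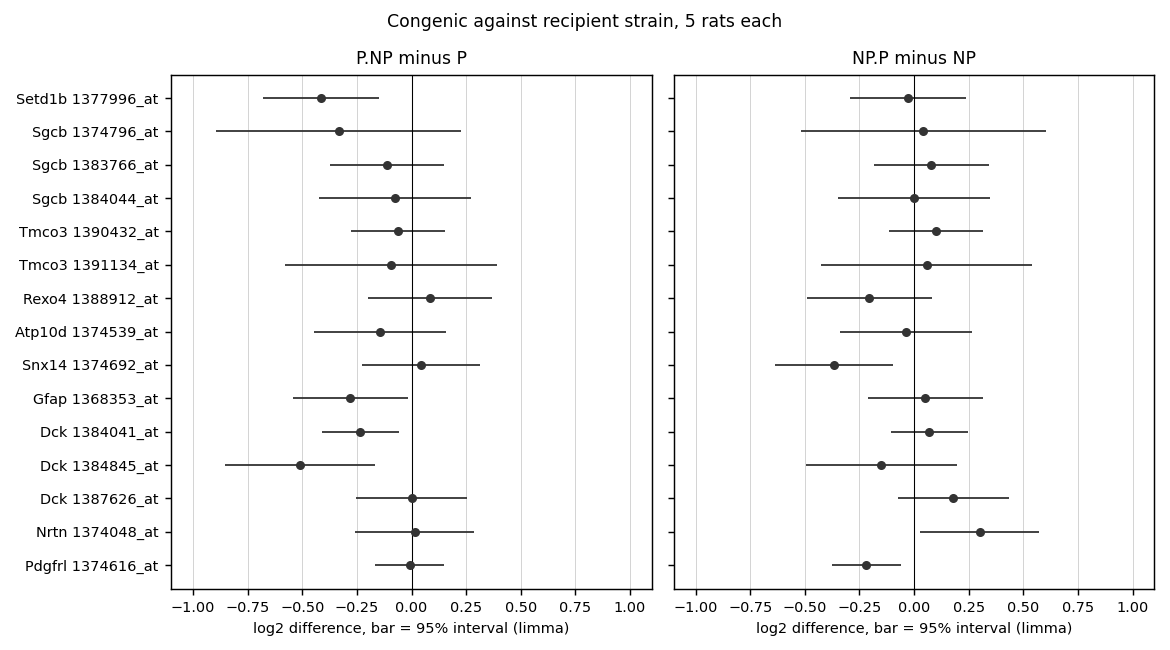
Log2 difference of P.NP minus P rats (left) and of NP.P minus NP rats (right) for the 15 probe sets, with 95% intervals from limma's single fit over 20 arrays (5 rats a strain). No difference passed at a false discovery rate of 10%; estimates run from -0.51 to 0.08 on the left and from -0.37 to 0.30 on the right.

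Gene lists were set beside the 10 genes, some of genes that act with a member and others of relatives in the same family or of markers of a cell type. Of 71 tested genes in these 10 lists, 16 passed between P and NP background rats (22.5%), where 23% of all 10665 genes did, and their median absolute difference was 0.13, beside 0.11 over all genes. In P.NP set against P rats 0 of these 71 passed (5 at an unadjusted p under 0.05), where 0.188% of all genes did, and between NP.P and NP rats 0 (9 at an unadjusted p under 0.05), where 2.61% did. Of the deoxynucleoside salvage genes listed beside Dck, 3 of 12 rose and 3 fell on the P background. Dtymk, the thymidylate kinase, was lower there (-0.50, standard error 0.06, adjusted p = 1.17e-05, limma), as was Tk1, the cytosolic thymidine kinase (-0.26, adjusted p = 0.00485). Nt5c, a nucleotidase of deoxynucleotides, was higher (0.65, standard error 0.14, adjusted p = 0.00412), as was the deaminase Dctd (0.32, adjusted p = 0.00959).

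Of 8 tested genes of the dystrophin complex, only the epsilon sarcoglycan gene Sgce passed, with 1088 ± 87.9 on the P background and 961 ± 86.2 on the NP background (SD, n = 10 each; 0.18, adjusted p = 0.05, limma), and the list's median was 0.19. Of the 3 tested PDGF genes, both receptors were higher on the P background, Pdgfrb by 0.28 (adjusted p = 0.0304) and Pdgfra by 0.16 (adjusted p = 0.0319), as was Pdgfrl. Of 5 genes of the neurturin family and its receptors 0 passed (0 at an unadjusted p under 0.05). The co-receptor Gfra2 had 296 ± 59.8 on the P background and 293 ± 62.1 on the NP background, and Ret 262 ± 53.4 and 242 ± 69.0 (SD, n = 10 each).

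Among 12 genes of the SET1 and related histone methyltransferase complexes, Dpy30 was lower (-0.14, adjusted p = 0.0493, limma) and Hcfc1 higher (0.12, adjusted p = 0.0972) on the P background. The largest difference of the 12 was 0.19. Of 10 flippases and their subunits, Atp8a1, which lies near Atp10d on chromosome 14, was higher (0.41, standard error 0.06, adjusted p = 4.37e-05) and Atp11b lower (-0.25, adjusted p = 0.0124). Among the 7 exonucleases related to Rexo4, Isg20, an interferon-induced exonuclease, was lower on the P background (-0.68, standard error 0.08, adjusted p = 1.12e-05), as was Rexo2 (-0.13, adjusted p = 0.065). Of 2 sorting nexins related to Snx14 0 passed (0 at an unadjusted p under 0.05), and of 4 antiporters set beside Tmco3 0 passed (1 at an unadjusted p under 0.05).

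Position was not used to choose the genes. Of the 186 genes that were among the 10 nearest tested genes on either side of a member in the gene order of GRCr8 (members left out), 63 passed between P and NP background rats (33.9%), where 23% of all genes did. Of the 63, 38 were higher and 25 lower on the P background. The median absolute difference of the 186 was 0.15, against 0.11 over all genes, and 2 of them differed by 2-fold or more. Uhrf1, a DNA methylation factor of dividing cells, was higher on the P background (1.33, standard error 0.15, adjusted p = 4.6e-06, limma). It was the outermost of the 10 counted on its side of Nrtn, which was lower on that background. Ppbp near Dck, a platelet chemokine, was lower like Dck (-1.01, standard error 0.09, adjusted p = 1.36e-07). Ppbp also differed between NP.P and NP rats (adjusted p = 0.00202, limma). The shares ran from 4 of 20 around Atp10d to 9 of 20 around Rexo4 and around Pdgfrl, and the neighbours of Sgcb and Atp10d have 14 genes in common.

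Of the 20 tested genes nearest to a member, 1 on each side, 9 passed, where 23% of all genes did. Of the 9, 5 went in the direction of the member and 4 in the opposite one. These small counts were not tested against that share, and nothing is read from them. Next to a member means here the nearest tested gene, and genes that were not tested can lie between. Around Dck, Slc4a4 on one side (0.48, standard error 0.10, adjusted p = 0.00336, limma) and Grsf1 on the other (0.22, adjusted p = 0.0171) were higher on the P background, where Dck was lower. Next to Rexo4, Slc2a6 was lower on the P background (-0.77, standard error 0.18, adjusted p = 0.0076), and next to Snx14, Nt5e was lower (-0.50, standard error 0.08, adjusted p = 0.000216). Mtus1, next to Pdgfrl, was higher on the P background like Pdgfrl itself (0.72, standard error 0.09, adjusted p = 1.87e-05), and Psmd9, next to Setd1b, was lower like Setd1b (-0.36, standard error 0.06, adjusted p = 0.000422). Around Sgcb 6 of 20 neighbours passed, 4 higher and 2 lower on the P background, with no called gene within 2 steps. Ociad1, 3 steps from Sgcb, was lower like Sgcb (-0.42, standard error 0.05, adjusted p = 3.68e-06). Around Tmco3 7 of 20 passed, 5 higher on the P background like Tmco3 and 2 lower. Lamp1, 5 steps from Tmco3, was lower (-0.38, standard error 0.04, adjusted p = 3.91e-06). Cdc16 (0.28, adjusted p = 4.91e-05) and Grtp1 (0.78, adjusted p = 0.0026) were higher.

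**Figure D5:**
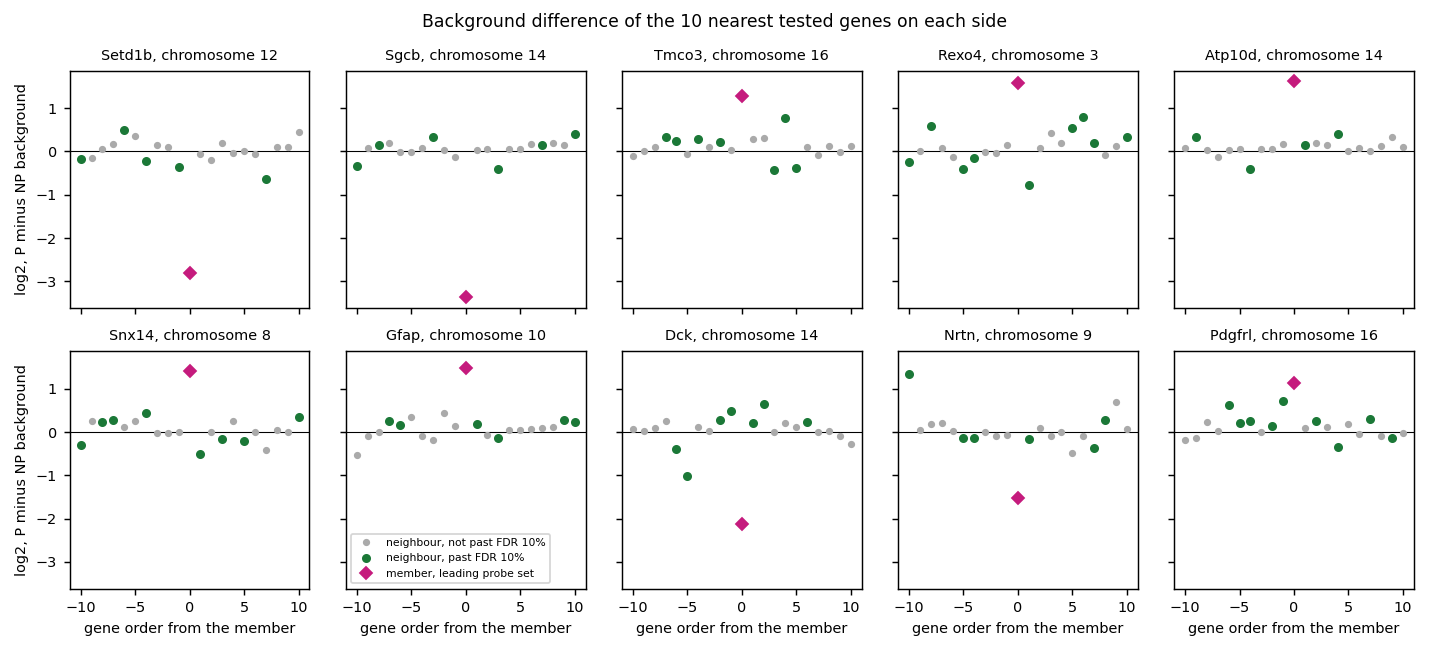
Log2 difference, P minus NP background, of the 10 nearest tested genes on each side of each member in gene order, with the member's leading probe set at 0; coloured neighbours passed at a false discovery rate of 10%. Of 186 different neighbours 63 passed, with Uhrf1 near Nrtn (1.33) the largest; neighbours are drawn at their brightest probe set and members at the probe set with the largest difference.

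The probe set of another gene most like the leading probe set of each member was found by Pearson's r of log2 signals over the 20 arrays. The correlation is given as a description, since the 20 rats fall into the 2 backgrounds and these set its value. Setd1b was most like Lcn2 (Pearson r = 0.985, n = 20 arrays, difference -3.79) and Elavl1 (r = 0.984), Sgcb was most like Uqcc6 (r = 0.976), and Dck at 1384845_at was most like Setd1b (r = 0.964). Dck at 1384041_at had r = 0.984 with Setd1b. Elavl1 lies on chromosome 12 like Setd1b. Rexo4 was most like Ptprj (r = 0.974), which is on the same chromosome 3, and Pdgfrl was also most like Ptprj (r = 0.981). Snx14 was most like Vav2 (r = 0.969), which lies near Rexo4, and Nrtn most like Elavl1 (r = 0.967). Atp10d was most like Fam111a (r = 0.957) and Gfap most like Atp10d (r = 0.955). Tmco3 had the weakest match, Nhsl2 (r = 0.919).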

How the data were processed

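Femur RNA of 20 rats, 5 per strain and 1 Rat Genome 230 2.0 array per rat, was analysed. The authors analysed the array images with GCOS 1.2, and the deposited values are MAS5 signal intensities, scaled so that every array has the same 2% trimmed mean; the robust multichip averages of the methods were not used here. Signals under 1 (190 of 621980 values) were set to 1 and taken to log2. The 18625 of 31042 probe sets whose mean log2 signal reached the 40th percentile were fitted with 4 strain means in limma 3.58.1 (R 4.3.3; 16 residual and 2.78 prior degrees of freedom), with Benjamini-Hochberg adjustment over all of them at 10%. Sequences and gene order came from RefSeq (GRCr8), gene symbols from the platform annotation, and genes that are no members were read at their brightest probe set. For lists, up to 4 members past the threshold were named by smallest adjusted p or, with none, up to 2 bright ones; for neighbours, up to 3. The mean levels of other list genes, Gfra2, Ret, Slc1a3 and Pmp22 among them, and the sides of Dck were named after their values were seen. The members and lists were chosen with earlier results of these data known. The fit was tested on simulated data. Figures were made in matplotlib 3.10.9 (Python 3.11.15). Alternatives were an added offset of 21.7 (the signal at the 10th percentile), quantile normalization, other filters, a mean-variance trend, a replicate block, a 5% rate, 2 strains alone, the methods' unequal-variance test, fewer neighbours and each array left out.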

Additional observations from a re-analysis of the deposited data

Results flagged for a closer look

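Of 60 sets of 5 rats (15 probe sets in 4 strains), 1 held a rat far from the other 4: Tmco3 at 1391134_at in NP.P rats, where replicate 3 had a signal of 283 and the other 4 lay between 125 and 156. Chance marks about 1 in 20 such sets. At the other Tmco3 probe set the same rat, at 974.6, was the lowest of the 5 NP.P rats.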

How the results depend on the processing

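All 10 background differences kept their direction under quantile normalization, the added offset and the loss of any 1 array, and none moved by more than the spread between rats. Reading each gene at its brightest probe set could move only Dck and Tmco3. The reason is that 7 genes have 1 probe set and the leading probe set of Sgcb is also its brightest. Dck was then -1.25 in place of -2.12, which is further than that spread, and Tmco3 1.26 in place of 1.28. The other Sgcb probe sets, not part of this alternative, had -0.74 and 0.14. Without 1 array in turn, the differences ran from -3.44 to -3.28 for Sgcb, -2.87 to -2.76 for Setd1b and 1.11 to 1.16 for Pdgfrl. The count of member probe sets called between NP.P and NP rats was 1 in place of 0 with the replicate block (Snx14), and between 0 and 1 without 1 array in turn (Snx14 without NP.P replicate 1). In the F test it was between 0 and 1 without 1 array in turn (Setd1b without P replicate 4). It was 0 in every alternative between P.NP and P rats and for the interaction. The methods' unequal-variance t-test and the fits of 2 strains alone called 0 of 15 in both congenic comparisons. Of neighbours, 41 of 191 passed with no filter and 81 of 186 with the filter at the 60th percentile. Of all probe sets, 3322 of 31042 and 3943 of 12417 passed in these settings. Neighbours are genes read at 1 probe set, so these shares are of unlike units, and the shares of all genes were not counted there. With 5 on each side 35 of 96 neighbours (36.5%) passed, and without 1 array in turn between 56 and 67. The count of 16 among the 71 listed genes ran from 11 to 19 and stayed within 1.5 times. The block moved no other of these counts by over 1.5 times. Same-numbered rats of different strains had correlations of their deviations from the strain means between -0.09 and 0.33, with 5 of 30 pairs over 0.1, so the numbers were not taken to pair the rats. With the filter at the 60th percentile 12 of the 15 member probe sets remained in the test. Precision is limited by the number of arrays, 5 a strain.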
